A study of Homo sapiens with 12 samples.

Results

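Cytoplasmic ribosomal protein genes encode the proteins of the large (60S) and small (40S) ribosomal subunits. They were taken as the protein-coding genes with a symbol of the form RPL or RPS and a number, with the optional suffixes A, X, L and L1, together with RPLP0, RPLP1, RPLP2 and RPSA. This gave 84 of the 58735 genes in the count table, of which 52 belong to the large and 32 to the small subunit, and 7 are paralogs with an L or L1 suffix. In all, 83 of the 84 passed the filter on low counts that left 15060 genes for testing; RPL10L had 0 counts in all 12 libraries. RNA-seq had been done on OCI-AML2, an established human acute myeloid leukemia cell line with a rearranged KMT2A gene, after lentiviral delivery of a single guide RNA: sgUTX_2 or sgUTX_4, aimed at KDM6A (UTX, an H3K27 demethylase), or sgLuc, a control guide. Each guide was combined with 1 µM SGC0946, an inhibitor of the H3K79 methyltransferase DOT1L, or with DMSO, for 6 days. The 6 groups are thus sgUTX_2, sgUTX_4 and sgLuc cells in SGC0946 and sgUTX_2, sgUTX_4 and sgLuc cells in DMSO, with 2 libraries each. Whether the 2 libraries of a group are from separate cultures is not stated in the labels, and the spread behind each p-value may therefore be technical.

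Ribosomal protein mRNAs are among the most abundant of a growing cell, and their proteins are made in near equal numbers, since each ribosome holds 1 copy of almost every one. Most of these mRNAs start with a C followed by a run of pyrimidines, the 5′ terminal oligopyrimidine (TOP) sequence, through which LARP1 and mTORC1 control their translation and stability. Some parents have a paralog that can take their place in the ribosome or that has another role in ribosome assembly. Leukemia and bone marrow failure syndromes are linked to some of the genes: RPS19, RPL5 and RPL11 are mutated in Diamond-Blackfan anemia, RPS14 is lost in the 5q- syndrome, and RPL22 is deleted in some leukemias.

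The start regions of 8 members, parents and paralogs described below, are shown because the pyrimidine start is the best known shared feature of these genes. Each window holds 30 bases of the RefSeq promoter table (GRCh38.p14), 15 before the transcription start and 15 from it, 5′ to 3′ on the gene's strand, with the first 5 transcribed bases in capitals. The windows lie at chr9:19380222-19380251 (minus strand, RPS6), chr9:127451392-127451421 (minus, RPL12), chr1:153990747-153990776 (plus, RPS27), chr15:63157463-63157492 (minus, RPS27L), chr1:6199581-6199610 (minus, RPL22), chr3:170870181-170870210 (minus, RPL22L1), chr5:172958714-172958743 (plus, RPL26L1) and chr6:42879601-42879630 (plus, RPL7L1).
RPS6: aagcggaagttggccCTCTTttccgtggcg
RPL12: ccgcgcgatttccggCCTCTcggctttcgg
RPS27: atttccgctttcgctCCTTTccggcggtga
RPS27L: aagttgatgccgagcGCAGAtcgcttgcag
RPL22: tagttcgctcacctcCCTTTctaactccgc
RPL22L1: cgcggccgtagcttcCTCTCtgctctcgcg
RPL26L1: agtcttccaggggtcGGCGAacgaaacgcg
RPL7L1: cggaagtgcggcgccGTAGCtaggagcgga
RPS6, RPL12, RPS27, RPL22 and RPL22L1 start with C and 4 pyrimidines, whereas RPS27L, RPL26L1 and RPL7L1 do not. RPL22L1 thus starts like its parent and RPS27L does not. Of the 67 members in the promoter table, 47 (70.1%) had such a start, against 5.14% of all 27305 genes in the table. The motif CCGGAAG, searched on both strands of the 300 bases from 250 before the start to 50 after it, was in 35.8% of members and 12.2% of all genes; CACGTG was in 7.46% and 8.77%, and AAGATGG in 13.4% and 7.11%. A match describes letters only.

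Total counts per library lay between 15480493 and 23262141. TMM scaling factors lay between 1.03 and 1.07 in the 8 sgUTX libraries, at 0.934 and 0.924 in sgLuc cells with SGC0946 and at 0.888 and 0.854 in sgLuc cells with DMSO, so all 4 sgLuc libraries lay below the 8 sgUTX ones. KDM6A, the targeted gene, had 14.4 to 15.9 CPM (counts scaled to a common library size) in sgUTX_2 libraries and 43.2 to 49.4 CPM in sgUTX_4 libraries, against 27.9 to 35.1 CPM in sgLuc libraries. Its RNA was thus lower with one guide and higher with the other, so these counts do not show its loss, and sgUTX names below only the guide on the label. All 7 markers of myeloid leukemia cells were expressed (LYZ 244 to 9453 CPM, PTPRC 390 to 1014 CPM). MPO went against the summed level below, at 430, 432, 577 and 526 CPM in sgUTX and 386 and 334 CPM in sgLuc with SGC0946, and 82.9, 71.4, 149 and 121 CPM in sgUTX and 72.9 and 53.5 CPM in sgLuc with DMSO, and was not called (adjusted p = 0.227 and 0.072). Of 7 markers of other cell types, PF4 had 0 counts and CD3E, EPCAM and CDH5 stayed below 1 CPM. The myeloid markers summed to 4500 to 6473 CPM in sgUTX and 11520 to 11750 CPM in sgLuc with SGC0946, and to 1208 to 1568 CPM in sgUTX and 1602 to 1772 CPM in sgLuc with DMSO. LYZ made up most of the sums with SGC0946. With DMSO its unscaled counts overlapped, at 6146, 5572, 9707 and 7859 in sgUTX and 6266 and 4257 in sgLuc libraries. The markers of other cell types summed to 2.67 to 4.35 CPM in sgUTX and 6.93 to 8.81 CPM in sgLuc with SGC0946. With DMSO they summed to 0.438 to 2.05 CPM in sgUTX and 3.03 to 4.61 CPM in sgLuc. Their part in the results was not tested.

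Together the 84 genes took 11.4, 12.1, 10.9 and 11.04% of all counts in the 4 sgUTX libraries with SGC0946 and 12.9 and 13.1% in the 2 sgLuc libraries with SGC0946. With DMSO they took 11.6, 11.1, 11.9 and 11.5% in sgUTX libraries, against 17.6 and 18.8% in sgLuc libraries. The sgUTX libraries lay below both sgLuc libraries in each treatment, the gap was wider in DMSO, and the sgUTX libraries with the 2 treatments overlapped. In such bulk samples a smaller share of cells that express a gene and less RNA of it per cell cannot be told apart. A share of counts is also relative to all other genes in the library and does not give RNA per cell. Mitochondrially encoded genes moved too: they held 1.37 to 1.51% of counts in sgUTX and 1.91 to 2.02% in sgLuc with SGC0946, and 1.10 to 1.25% in sgUTX and 1.34 to 1.71% in sgLuc with DMSO. Their part in the share was not tested.

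**Figure D1:**
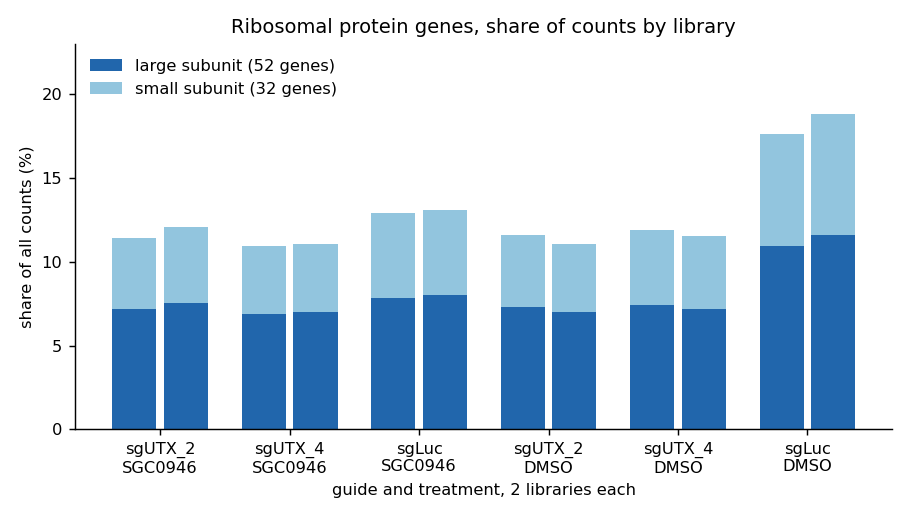
Share of all counts (%) held by large (dark) and small (light) subunit genes, stacked, with 1 bar for each of the 12 libraries. The 2 sgLuc bars with DMSO, at 17.6 and 18.8%, stand above the other 10, which lie between 10.9 and 13.1%.

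With DMSO, most ribosomal protein genes were lower in sgUTX than in sgLuc libraries. By edgeR's quasi-likelihood test with Benjamini-Hochberg adjustment over all 15060 genes, 73 of 83 members were lower, 4 were higher and 6 were not called; of all genes tested, 61% were called, 32.3% lower and 28.7% higher. The members' median log2 fold change was -0.90, against -0.01 over all genes tested. The largest falls among members called were in RPL37, RPS6, RPS29, RPL34 and RPS27. RPS6, the small subunit protein that S6 kinases phosphorylate, had 2599, 2378, 2932 and 2603 CPM in sgUTX libraries and 7054 and 8804 CPM in sgLuc libraries, which is -1.59 ± 0.09 as a log2 fold change with its SE (adjusted p = 1.68e-10). RPL37, a small zinc-binding protein of the large subunit, had 715, 572, 804 and 675 CPM in sgUTX and 2252 and 2372 CPM in sgLuc libraries (-1.74 ± 0.08; adjusted p = 1.75e-12). In both genes every sgUTX library lay far below both sgLuc libraries.

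RPS29, a zinc-binding small subunit protein, varied widely among the sgUTX libraries, with 223, 153, 438 and 280 CPM, against 798 and 718 CPM in sgLuc libraries (-1.47 ± 0.35; adjusted p = 0.00615). RPS27, a further zinc-binding protein of that subunit, had 588, 425, 769 and 597 CPM in sgUTX and 1484 and 1598 CPM in sgLuc libraries (-1.37 ± 0.19; adjusted p = 0.000189). RPL34 had 685, 612, 818 and 735 CPM in sgUTX and 1791 and 2023 CPM in sgLuc libraries (-1.42 ± 0.09; adjusted p = 6.73e-11). The groups did not overlap for any of the 3 genes, and in each the second sgUTX_2 library was the lowest of the 6 with DMSO. Among the genes tied to marrow failure, RPL5 and RPL11, which bind the 5S rRNA, fell by 0.77 and 1.09 on the log2 scale, RPS19 fell by 0.73, and RPS14 fell by 0.90, all called. At the other end of those lower, RPS15A fell by 0.31 ± 0.08 (adjusted p = 0.0018); its value was -0.03 when scaled by library size alone and -0.04 with a trend on coding length removed, and it was not called in either.

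Among the members higher in sgUTX libraries were RPL7L1 and the core ribosomal proteins RPS10 and RPL17, which have few counts in this table. Per kb of coding length, RPS10 stood at 0.201% and RPL17 at 1.41% of the median tested member, although their proteins are needed in every ribosome. RPL36A, whose paralog RPL36AL is described below, stood at 0.517%. RPL17 had 25.5, 25.4, 23.8 and 22.9 CPM in sgUTX and 12.8 and 14.7 CPM in sgLuc libraries (0.83 ± 0.12; adjusted p = 3.83e-06). RPS10 had 2.55, 3.11, 3.97 and 4.11 CPM in sgUTX and 1.68 and 2.12 CPM in sgLuc libraries (0.86 ± 0.26; adjusted p = 0.00687). These groups did not overlap, and they moved against the 73 members that were lower.

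Exons of RPS10 overlap those of the readthrough gene RPS10-NUDT3 over 39.4% of their length and those of RPL17 overlap RPL17-C18orf32 and others over 35.3%; those of RPL36A overlap RPL36A-HNRNPH2 over 8.4%. How reads on such exons were counted is not given in the sources used here. The annotated pseudogenes of RPS10 held 148% as many counts as the gene; with them added, its log2 fold change was 0.26 and not called (adjusted p = 0.167). The value without the first sgLuc library with DMSO was 0.69 (adjusted p = 0.103). EEF1G, an elongation factor subunit known to be abundant in most cells, had 0 counts in all 12 libraries, so a low count in this table need not mean a low level.

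SGC0946 lowered most ribosomal protein genes in sgLuc cells. Here 70 of 83 members were lower than with DMSO, 0 were higher and 13 were not called, where 48.9% of all genes were called, 24.2% lower and 24.7% higher. None was higher at an unadjusted p under 0.05 either, and DESeq2 called 72 lower and 0 higher. The median was -0.57, against 0.00 over all genes. The largest falls among members called were in RPL22 and in RPS25, RPL12, RPS23 and RPL14. RPL22, a large subunit protein without which mice are viable, had 87.0 and 93.6 CPM with SGC0946 and 161 and 173 CPM with DMSO in sgLuc cells (-0.88 ± 0.12; adjusted p = 2.09e-05). RPL12, a protein of the ribosomal stalk base, had 1965 and 2160 CPM with SGC0946 and 3403 and 3913 CPM with DMSO (-0.83 ± 0.08; adjusted p = 5.35e-09). The libraries of the 2 treatments were well apart for both genes.

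RPS25, needed for initiation at some viral internal ribosome entry sites, had 1160 and 1188 CPM with SGC0946 and 1976 and 2223 CPM with DMSO (-0.84 ± 0.08; adjusted p = 2.05e-08). RPS23, a protein of the decoding site, fell by 0.82 and RPL14 fell by 0.79 on the log2 scale. Of the genes that fell most with the UTX guides, RPL37 and RPS6 were called here too, at -0.70 and -0.63, whereas RPS27 (-0.47; adjusted p = 0.122) and RPS29 (-0.47; adjusted p = 0.399) were not. RPS27 had 1119 and 1108 CPM with SGC0946 and 1484 and 1598 CPM with DMSO in sgLuc cells, without overlap. It was called lower when only the groups compared were fitted, at -0.46 (adjusted p = 1.03e-08). The same held with the length trend removed, at -0.62 (adjusted p = 0.00359). The least lowered of those called were RPL7L1 (-0.20), RPL22L1 (-0.35), RPS14 (-0.39), RPL39L (-0.40) and RPL31 (-0.41). The calls of RPL7L1 and RPL39L were each lost without the first or the second sgLuc library with SGC0946, with adjusted p between 0.0502 and 0.11. The same happened to RPL7L1 without the second sgLuc library with DMSO (0.0923) and to RPL39L without the first (0.112), and to both under scaling by library size alone.

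In sgUTX cells SGC0946 left nearly all members near their DMSO level. In all, 3 of 83 were called, all higher: RPL17 (0.29 ± 0.09; adjusted p = 0.0131), RPL28 (0.19 ± 0.05; adjusted p = 0.00512) and RPL22L1 (0.15 ± 0.05; adjusted p = 0.0162). Of all genes, 33.8% were called, 17.4% higher and 16.4% lower. The members' log2 fold changes ran from -0.28 to 0.29, with a median of -0.02, against 0.00 over all genes. By edgeR 0 were lower, 6 were lower at an unadjusted p under 0.05, and DESeq2 called 1 lower. The count of members lower was 12 without the second sgUTX_2 library with DMSO, 6 without the second sgUTX_2 library with SGC0946 and 1 without the first sgUTX_4 library with DMSO, and the call of RPL22L1 was lost without either of those sgUTX_2 libraries (adjusted p = 0.0504 and 0.0529). With a trend on coding length removed, 45 were lower and 0 higher, while all genes shifted by a median of -0.11. RPL28, a large subunit protein, had 918, 961, 930 and 884 CPM with SGC0946 and 862, 798, 763 and 812 CPM with DMSO in sgUTX cells; the lowest value with SGC0946 was above the highest with DMSO. RPL12, described above in sgLuc cells, had 1511, 1532, 1426 and 1443 CPM with SGC0946 and 1448, 1428, 1414 and 1414 CPM with DMSO in sgUTX cells, where the libraries overlapped.

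The SGC0946 responses of sgUTX and sgLuc cells were then compared with each other, as the log2 fold change in sgUTX minus that in sgLuc cells. This difference was called for 65 of 83 members, all positive, where 34.8% of all genes were called, 18.3% positive and 16.5% negative; 0 members were negative at an unadjusted p under 0.05 or with DESeq2. The median was 0.52, against 0.02 over all genes. The largest differences were those of RPL12 (0.88 ± 0.09; adjusted p = 1.61e-07), RPS2 (0.81 ± 0.10; adjusted p = 9.95e-07) and RPL14 (0.81 ± 0.11; adjusted p = 5.63e-06). RPS2, a small subunit protein near the mRNA entry channel, had 3920, 3890, 3497 and 3592 CPM with SGC0946 and 3770, 3714, 3335 and 3451 CPM with DMSO in sgUTX cells. In sgLuc cells it had 4094 and 4238 CPM with SGC0946 and 6713 and 7287 CPM with DMSO. The sgLuc libraries with SGC0946 came close to the sgUTX libraries, and the sgLuc libraries with DMSO were the only ones far from the rest. This comparison, that of sgUTX with sgLuc in DMSO and that of SGC0946 in sgLuc cells all rest on these same 2 libraries.

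With SGC0946 in both, which uses none of those 2 libraries, 65 of 83 members were lower in sgUTX than in sgLuc libraries, 6 were higher and 12 were not called; of all genes, 56.9% were called, 29.3% lower and 27.7% higher. The median was -0.33, against 0.01 over all genes. The count of members lower depended on single libraries and was smaller in some fits with 1 library left out. Scaled by library size alone, 39 members were lower, and of the genes called 65.0% were higher, against 48.6% with TMM; with a trend on coding length removed, 38 were lower. The genes that were furthest apart were RPS29 (-1.29 ± 0.35), RPL37 (-1.12 ± 0.09), RPL39 (-1.07 ± 0.11), RPS27 (-1.0 ± 0.19) and RPS6 (-0.95 ± 0.10). RPL37 had 628, 655, 663 and 667 CPM in sgUTX and 1418 and 1428 CPM in sgLuc libraries. RPL39, which lines the exit tunnel of the large subunit, had 361, 429, 385 and 413 CPM in sgUTX and 838 and 825 CPM in sgLuc libraries. RPS6 had 2799, 2950, 2477 and 2447 CPM in sgUTX and 4905 and 5369 CPM in sgLuc libraries. In the 3 genes the groups were far apart, as in DMSO.

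RPS29 had 172, 210, 259 and 258 CPM in sgUTX and 593 and 502 CPM in sgLuc libraries with SGC0946 (adjusted p = 0.0135); without the first sgLuc library the adjusted p was 0.0819. Of the marrow failure genes, RPL11 and RPS14 were lower by the test (-0.65 and -0.52), while RPL5 had -0.09 (adjusted p = 0.276). RPS19 was called at -0.19 ± 0.06 (adjusted p = 0.0118), lost its call without the second sgLuc library (adjusted p = 0.132) and when scaled by library size alone (-0.01), and had 0.07 with the length trend removed (adjusted p = 0.261). Those higher included RPS10 (1.14 ± 0.26), RPL17 (0.92 ± 0.12), RPL36A (0.79 ± 0.24), RPL7L1 (0.45 ± 0.06) and RPL22L1 (0.40 ± 0.06). RPL36A was not called without the second sgLuc library (0.69; adjusted p = 0.0816), nor RPS10 with its pseudogenes added (0.11; adjusted p = 0.563).

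**Figure D2:**
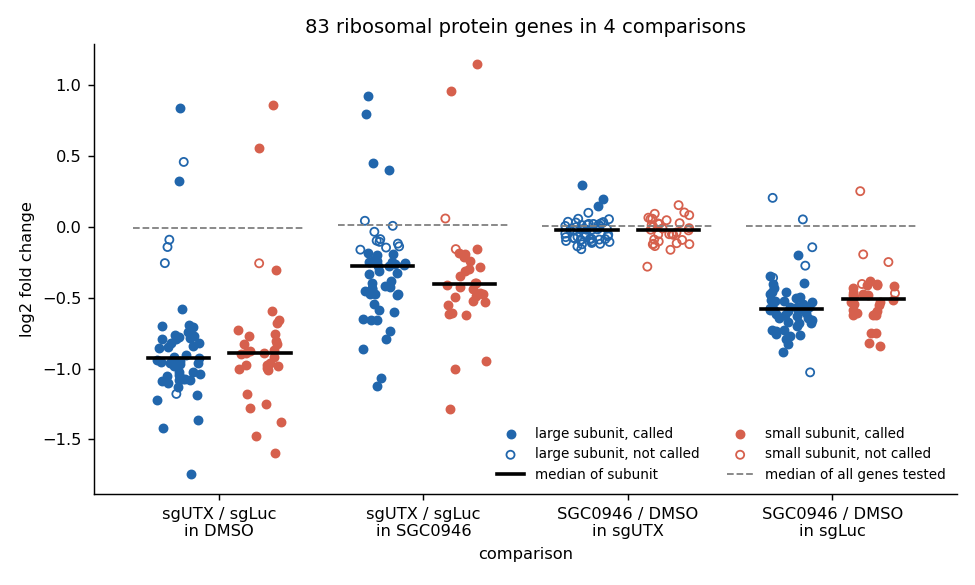
Log2 fold changes of the 83 members tested, with large subunit genes in blue and small subunit genes in red; filled points were called, black bars are medians of a subunit and dashed lines medians of all genes. The medians of the large and small subunit are -0.92 and -0.89 for sgUTX against sgLuc in DMSO, and both are at -0.02 for SGC0946 in sgUTX cells.

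The 2 comparisons of sgUTX with sgLuc share no library. Of the 73 members lower in DMSO, 64 (87.7%) were among the 65 lower in SGC0946, where they made up 98.5%. The 4 higher in DMSO (100%) were all among the 6 higher in SGC0946, where they made up 66.7%. Over all genes tested, 32.3% were lower and 28.7% higher in DMSO, and 29.3% lower and 27.7% higher in SGC0946. Across the 83 members the 2 log2 fold changes had a Pearson r of 0.91 and a Spearman rho of 0.82, and 0.82 and 0.77 over the 77 left without the 6 parents with under 10% of the median level per kb; the points share the 12 libraries' counting and the genes' lengths. For SGC0946 in sgUTX and in sgLuc cells, which share no library either, r was 0.39 and rho 0.22 over 83 members, and 0.18 and 0.09 over the 77. Overlaps and correlations over all genes are not given here. The likeness of the 2 comparisons of sgUTX with sgLuc may therefore not be particular to the members.

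**Figure D3:**
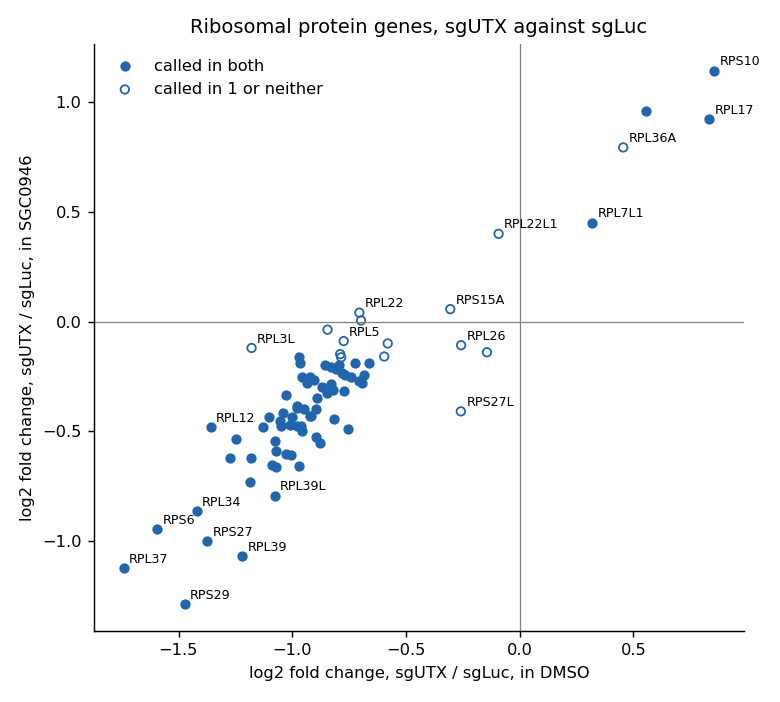
Log2 fold change of each of the 83 members for sgUTX against sgLuc in DMSO (x) and in SGC0946 (y), with filled points called in both. RPL37, RPS6, RPS29 and RPS27 lie at the lower left, most members near -0.90 on x and -0.33 on y, and RPS10 and RPL17 at the upper right.

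The guides were also set against sgLuc singly; within a treatment both share the same 2 sgLuc libraries, so their counts are not independent. With DMSO, 75 members were lower and 3 higher with sgUTX_2 (of all genes 60.4% were called, 32.2% lower and 28.2% higher), and 74 lower and 4 higher with sgUTX_4 (59.7%, 31.2% and 28.5%). With SGC0946, 62 were lower and 6 higher with sgUTX_2 (56.4%, 29.1% and 27.3%), and 68 lower and 6 higher with sgUTX_4 (56.3%, 29% and 27.3%). Set directly against each other, sgUTX_4 and sgUTX_2 differed in few members: in DMSO 6 were higher and 1 lower with sgUTX_4 (of all genes 3.49% were called, 1.72% higher and 1.77% lower), and in SGC0946 1 was higher and 3 lower (3.01%, 1.61% and 1.4%). In DMSO the 6 were RPL26, RPS21, RPS27L, RPS26, RPL34 and RPS15A and the other was RPL22; in SGC0946 RPL26 was higher and RPS9, RPS3A and RPL39L were lower. RPS21, RPS26, RPS9 and RPS3A are named here after their values were seen. These counts turned on single libraries: those higher in DMSO were 15 and 2 without the first and the second sgUTX_2 library and 1 and 11 without the first and the second sgUTX_4 library, and RPL22 was not called without the first sgUTX_4 library. Those lower in SGC0946 were 1 without the second sgUTX_2 library, and 0 and 1 without the first and the second sgUTX_4 library.

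RPL26, a large subunit protein, was the member that split the guides in both treatments. It had 53.0 and 56.3 CPM in sgUTX_4, 34.3 and 34.1 CPM in sgUTX_2 and 51.8 and 43.5 CPM in sgLuc libraries with SGC0946. With DMSO it had 61.4 and 49.9 CPM in sgUTX_4, 34.3 and 31.4 CPM in sgUTX_2 and 55.4 and 49.8 CPM in sgLuc libraries. The sgUTX_4 libraries lay near sgLuc and the sgUTX_2 libraries below both. The difference between the guides was 0.76 ± 0.10 in DMSO (adjusted p = 8.03e-06) and 0.68 ± 0.09 in SGC0946 (adjusted p = 3.41e-05). Its pseudogenes held 5.52% as many counts as the gene, its exons overlapped a clone-named gene over 14.3% of their length, and its level per kb was 3.59% of the median member.

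Most members of both subunits were lower; the subunits were not tested against each other. In DMSO, 44 of 51 large subunit members were lower in sgUTX than in sgLuc libraries (median -0.92) and 29 of 32 small subunit members (median -0.89). With SGC0946 these were 37 (median -0.28) and 28 (median -0.40). For SGC0946 in sgLuc cells, 44 large (median -0.58) and 26 small subunit members (median -0.51) were lower. The shares of all genes tested that were lower were 32.3% for sgUTX against sgLuc in DMSO and 29.3% in SGC0946. For SGC0946 in sgLuc cells the share was 24.2%. Summed counts of the large over the small subunit gave 1.68, 1.64, 1.71 and 1.71 in sgUTX and 1.55 and 1.58 in sgLuc libraries with SGC0946, against 1.71, 1.71, 1.65 and 1.67 in sgUTX and 1.64 and 1.61 in sgLuc libraries with DMSO. The ratio was lowest in sgLuc libraries with SGC0946, and with SGC0946 the sgUTX libraries were above the sgLuc ones. With DMSO the lowest sgUTX library was above the highest sgLuc library by under the spread within either group, and below it when the L and L1 paralogs (1.625 against 1.627) or the most abundant member (1.532 against 1.535) were left out.

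Coding length went with the spread among members in some comparisons and not in others. The 11 members with up to 300 coding bases, among them RPL37, RPL39, RPS27 and RPS29, had a median of -1.08 for sgUTX against sgLuc in DMSO (10 lower) and -0.73 in SGC0946 (11 lower). The 24 members over 600 bases had -0.94 (22 lower) and -0.24 (17 lower). The shares of all genes tested that were lower were 32.3% in DMSO and 29.3% in SGC0946. Other short coding genes moved in the same direction: the 266 with up to 300 bases had medians of -0.19 and -0.16, against 0.01 and 0.03 for the 10804 with over 600. Between the guides too, the log2 fold change of sgUTX_4 over sgUTX_2 fell with coding length across the 83 members (Spearman rho -0.57 in DMSO and -0.55 in SGC0946), with a median of 0.32 for the 11 short members in DMSO and 0.15 for other coding genes of that length. Across the same 83 members, rho with coding length was 0.13 for sgUTX against sgLuc in DMSO and 0.37 in SGC0946, 0.45 for SGC0946 in sgUTX cells and -0.22 in sgLuc cells. Members share the libraries and their scaling, and the part of fragment length or RNA quality was not tested. Members with and without the pyrimidine start had the same median in DMSO, -0.92, with 43 of 47 and 15 of 19 lower, where 32.3% of all genes were.

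Of the paralogs, RPL22L1, RPL7L1 and RPS27L had more counts relative to their parents in every sgUTX library than in the sgLuc libraries of the same treatment. The other pairs within the symbols chosen showed no such split. Of the 6 paralogs tested, 1 was lower and 1 higher in sgUTX than in sgLuc libraries with DMSO, where 32.3% of all genes were lower and 28.7% higher. With SGC0946, 2 were lower and 2 higher, where 29.3% and 27.7% of all genes were, so these shares are close to those of all genes. RPL22L1, which can replace RPL22 in the ribosome and whose splicing RPL22 represses in some cells, had 357, 373, 349 and 354 CPM in sgUTX and 277 and 267 CPM in sgLuc libraries with SGC0946. With DMSO it had 330, 310, 321 and 334 CPM in sgUTX and 342 and 348 CPM in sgLuc libraries. So with SGC0946 it was higher in every sgUTX library (0.40 ± 0.06; adjusted p = 3.18e-06), and with DMSO slightly lower and not called (-0.09 ± 0.06; adjusted p = 0.161). The value in DMSO turned to 0.18 and was called when libraries were scaled by size alone (adjusted p = 0.00636) or with the length trend removed (adjusted p = 0.00887), so its direction there is not settled.

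RPL22 itself had 104, 94.1, 84.8 and 88.0 CPM in sgUTX and 87.0 and 93.6 CPM in sgLuc libraries with SGC0946 (0.04 ± 0.11; adjusted p = 0.769). With DMSO it had 114, 113, 87.2 and 94.5 CPM in sgUTX and 161 and 173 CPM in sgLuc libraries (-0.70 ± 0.10; adjusted p = 2.12e-05). RPL22 had only 9.47% of the median member's level per kb, and RPL22L1 30.4%. RPL22L1 counts were 342, 396, 411 and 403% of RPL22 counts in sgUTX and 318 and 285% in sgLuc libraries with SGC0946, and 290, 273, 368 and 353% in sgUTX and 213 and 201% in sgLuc libraries with DMSO. In all 12 libraries the paralog had more counts than its parent, and within each treatment all sgUTX libraries had a higher ratio than both sgLuc libraries. The coding lengths are close, 366 and 384 bases.

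RPL7L1, the counterpart of yeast Rlp7, an assembly factor of the large subunit, had 17.4, 17.4, 19.5 and 19.2% of RPL7 counts in sgUTX and 9.97 and 9.64% in sgLuc libraries with SGC0946. With DMSO it had 18.9, 19.7, 19.3 and 20.6% in sgUTX and 7.94 and 7.22% in sgLuc libraries. The ratio was about the same in all sgUTX libraries and far lower in every sgLuc library. Both genes moved, in opposite directions: in DMSO RPL7L1 was higher by 0.32 ± 0.06 (adjusted p = 6.31e-05), with 605, 548, 576 and 565 CPM in sgUTX and 454 and 465 CPM in sgLuc libraries, and RPL7 lower (-1.05 ± 0.07; adjusted p = 7.73e-12).

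RPS27L, the paralog of RPS27, had 6.74, 6.63, 7.36 and 6.55% of RPS27 counts in sgUTX and 4.45 and 4.6% in sgLuc libraries with SGC0946, and 5.70, 6.99, 5.45 and 6.19% in sgUTX and 2.66 and 2.84% in sgLuc libraries with DMSO. All sgUTX libraries again had the higher ratio. RPS27L had 33.5, 29.7, 41.9 and 36.9 CPM in sgUTX and 39.5 and 45.4 CPM in sgLuc libraries with DMSO (-0.26 ± 0.13; adjusted p = 0.1, and 0.0137 without the first sgUTX_4 library), where the groups overlapped, while RPS27 fell by 1.37 on the log2 scale. With SGC0946 RPS27L was called lower (-0.41 ± 0.13; adjusted p = 0.0119). Without the first or the second sgLuc library, which leaves 1 in that group, it had -0.43 or -0.39 and was not called. The call was also lost when scaled by library size alone and with the length trend removed (-0.10, adjusted p = 0.338).

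RPL39L, known mainly from male germ cells and cancer cells, fell with RPL39: it had 14.6, 14.9, 14.6 and 13.1 CPM in sgUTX and 31.2 and 29.2 CPM in sgLuc libraries with DMSO (-1.08 ± 0.12; adjusted p = 3.65e-08), where RPL39 had -1.22 ± 0.11. It made up 2.73 to 4.01% of RPL39 counts in sgUTX and 2.69 to 2.82% in sgLuc libraries with SGC0946, and 2.89 to 4.24% in sgUTX and 2.73 to 3.31% in sgLuc libraries with DMSO, so the groups overlapped in both treatments. RPL26L1 to RPL26 went with the guide: 50.7 and 46.2% in sgUTX_4 and 70.5 and 74.2% in sgUTX_2 with SGC0946, 45.1 and 48.7% in sgUTX_4 and 71.4 and 70.4% in sgUTX_2 with DMSO, and between 45.3 and 68.2% in sgLuc libraries. RPL26L1 was called in none of the 4 pairwise comparisons (log2 fold changes from -0.14 to 0.05).

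RPL3L, a striated muscle paralog of RPL3, had 3 to 19 counts per library and was not called (-1.18 ± 0.59 in DMSO; adjusted p = 0.0895, and 0.0244 without the first sgUTX_2 library), and RPL10L, a testis paralog of RPL10, had none. RPL3 and RPL10 were lower in sgUTX libraries with DMSO (-0.92 and -1.05) and with SGC0946 (-0.25 and -0.48). The call of RPL3 with SGC0946 was lost without the second sgLuc library (-0.22) and when scaled by library size alone (-0.07). It was also lost with the length trend removed (-0.10, adjusted p = 0.217). RPL36AL, which lies outside the symbols chosen here, had 1871 to 2692% of the counts of RPL36A in sgUTX and 5616 and 6400% in sgLuc libraries with SGC0946. With DMSO it had 1378 to 3047% in sgUTX and 5461 and 6594% in sgLuc libraries. This ratio was thus lower in every sgUTX library, and RPL36A had only 50 to 162 counts per library. RPL36AL was lower in sgUTX libraries in DMSO (-1.06 ± 0.10) and in SGC0946 (-0.56 ± 0.10), with 114, 97.8, 135 and 119 CPM in sgUTX and 234 and 249.6 CPM in sgLuc libraries with DMSO. It thus moved with most members, while RPL36A had 0.45 in DMSO (adjusted p = 0.0963, and 0.0115 when scaled by library size alone).

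**Figure D4:**
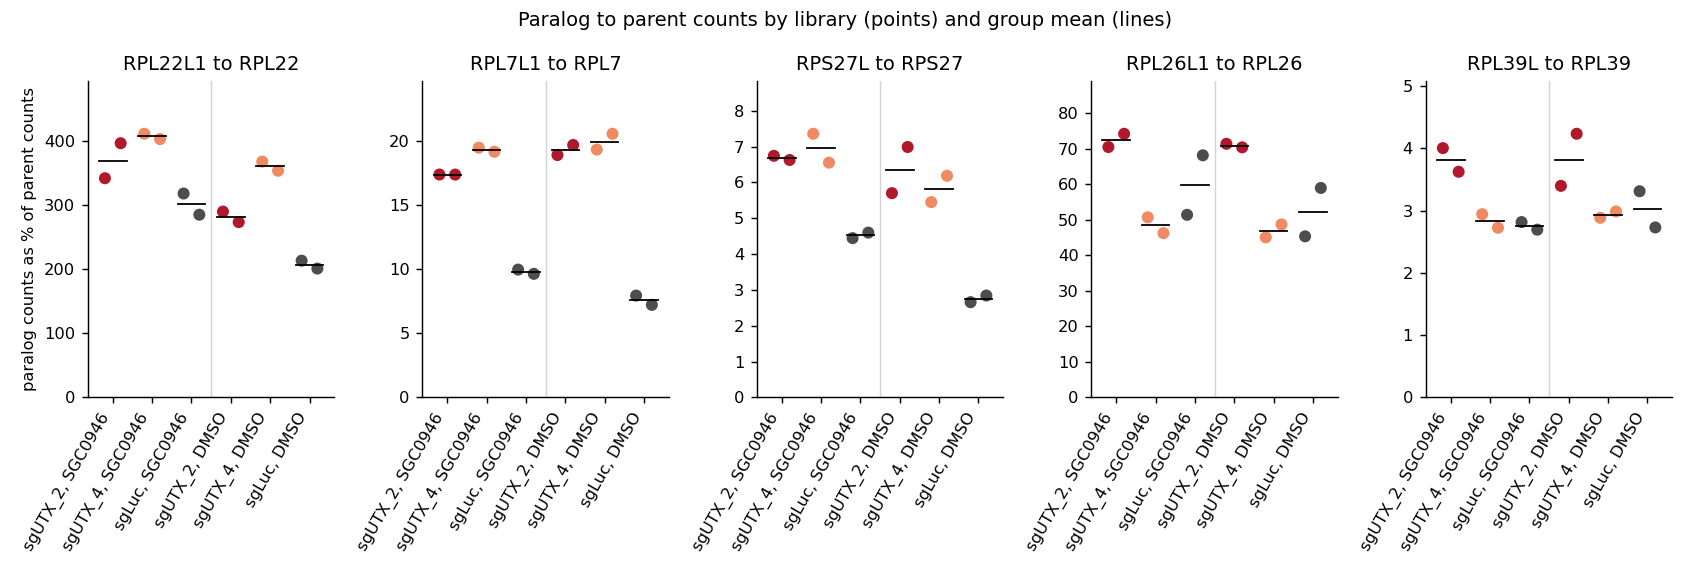
Counts of each paralog as a percent of its parent's, for the 12 libraries (points) and the mean of each guide and treatment (lines); each panel has its own axis from 0. RPL22L1, RPL7L1 and RPS27L are higher in all sgUTX libraries than in the sgLuc libraries of the same treatment, and RPL26L1 is higher with sgUTX_2 than with sgUTX_4.

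The other genes of ribosome supply did not all move with the ribosomal proteins. FAU, whose product is a ribosomal protein fused to a ubiquitin-like protein, was lower in sgUTX libraries in DMSO (-0.58 ± 0.07) and in SGC0946 (-0.23 ± 0.07), and with SGC0946 in sgLuc cells (-0.36 ± 0.08), and was called each time. Of 16 translation factors and other genes with TOP mRNAs, 15 were lower and 0 higher in sgUTX libraries in DMSO (median -0.85), 9 lower and 1 higher in SGC0946 (median -0.18), and 15 lower with SGC0946 in sgLuc cells (median -0.68). EEF1A1, the elongation factor that brings tRNA to the ribosome, had 25952, 27942, 24315 and 24758 CPM in sgUTX and 34303 and 36428 CPM in sgLuc libraries with SGC0946, and 26138, 25139, 24418 and 24419 CPM in sgUTX and 45312 and 50632 CPM in sgLuc libraries with DMSO. EEF2, the translocation factor, differed from it: it was lower in sgUTX libraries in DMSO (-0.85 ± 0.09) but had 0.04 ± 0.09 in SGC0946 (adjusted p = 0.751). The 10 noncoding hosts of snoRNAs, several of which are TOP RNAs, had 8 lower and 1 higher in DMSO and 5 lower and 4 higher in SGC0946; GAS5 was lower in both (-1.15 and -0.37), SNHG16 higher in both (0.27 and 0.63).

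More genes for assembling ribosomes were higher than lower. Of all genes, 28.7% were higher and 32.3% lower in DMSO, and 27.7% higher and 29.3% lower in SGC0946. Of 25 factors of 60S assembly, 18 were higher and 2 lower in sgUTX libraries in DMSO (median 0.66) and 19 higher and 0 lower in SGC0946 (median 0.67). Of 20 factors of 40S assembly, 12 were higher and 1 lower in DMSO (median 0.57), and 16 higher and 1 lower in SGC0946 (median 0.67). NIP7, a 60S maturation factor, had 67.04, 71.4, 65.8 and 64.1 CPM in sgUTX and 38.3 and 32.9 CPM in sgLuc libraries with SGC0946, and 85.6, 75.7, 84.8 and 74.7 CPM in sgUTX and 37.8 and 40.2 CPM in sgLuc libraries with DMSO. UTP20, a scaffold of the early pre-ribosome, was higher by 1.64 in DMSO and 1.21 in SGC0946. Of 14 genes of RNA polymerase I, which makes rRNA, 9 were higher and 3 lower in DMSO and 11 higher and 0 lower in SGC0946; POLR1A, its largest subunit, was higher by 1.18 and 1.10. The 77 mitochondrial ribosomal protein genes tested had 27 higher and 18 lower in DMSO (median 0.02), and 38 higher and 4 lower in SGC0946 (median 0.21). In DMSO more of them were thus higher than lower, the reverse of all genes. As a group they held 0.482 to 0.533% of counts in sgUTX and 0.418 to 0.421% in sgLuc libraries with DMSO. With SGC0946 these shares were 0.452 to 0.483% and 0.356 to 0.358%.

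With SGC0946, some assembly genes were lower in both kinds of cell, at shares to be read against 16.4% of all genes lower in sgUTX and 24.2% in sgLuc cells. In sgUTX cells, 10 of the 25 60S factors were lower and 1 higher, 8 of the 20 40S factors lower and 0 higher, and 6 of the 14 RNA polymerase I genes lower and 1 higher, where 0 ribosomal protein genes were lower. In sgLuc cells these counts were 12 lower and 1 higher, 8 lower and 1 higher, and 6 lower and 2 higher. Of 16 growth regulators, 11 were higher and 3 lower in sgUTX libraries in DMSO, among them MTOR (1.12 ± 0.08) and LARP1 (0.61 ± 0.06), and 10 higher and 3 lower in SGC0946. With SGC0946, 1 of the 16 was higher and 5 lower in sgUTX cells, and 4 higher and 5 lower in sgLuc cells. MYC, which drives transcription of ribosome genes, had 622, 632, 611 and 582 CPM in sgUTX and 342 and 351 CPM in sgLuc libraries with SGC0946, and 687, 636, 670 and 642 CPM in sgUTX and 766 and 804 CPM in sgLuc libraries with DMSO. It was thus lower in sgUTX libraries in DMSO (-0.25 ± 0.06; adjusted p = 0.000667) and higher in SGC0946 (0.82 ± 0.06; adjusted p = 9.87e-11).

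**Figure D5:**
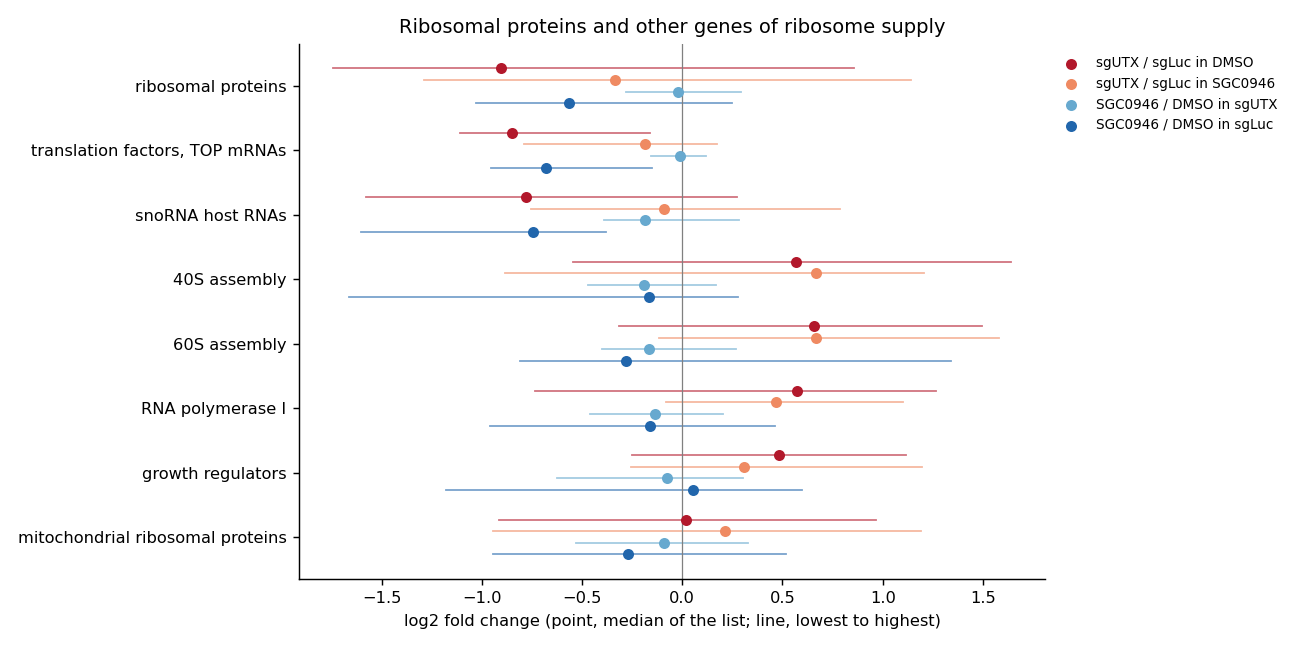
Log2 fold changes of the ribosomal protein genes and 7 other lists in 4 comparisons; points are medians and lines run from the lowest to the highest gene. For sgUTX against sgLuc in DMSO the ribosomal protein and TOP lists lie at -0.90 and -0.85, and the 40S and 60S assembly lists at 0.57 and 0.66.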

How the data were processed

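The authors deposited raw read counts per gene. Total RNA (RNeasy) had been made into NEBNext Ultra libraries and sequenced as read pairs of 150 bases, per the labels' protocols. STAR 2.5.1b and hg19 are named in the submitters' processing notes, whereas the gene identifiers match GENCODE 29, made on GRCh38, which leaves the build of the counts uncertain. How reads were assigned, by strand and between genes that share them, is not given in the sources used here, so overlapping genes and pseudogene copies are uncertain.

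The members, gene lists and comparisons were chosen with earlier results of these data known. The fits used edgeR 4.0.16 under R 4.3.3 (scaling by TMM, the default filter of filterByExpr, quasi-likelihood tests with robust estimates, two-sided, called at an adjusted p under 0.05 over 15060 genes). All 12 libraries entered 1 fit of 4 groups, with both UTX guides as replicates (8 residual degrees of freedom), and, for single guides, 1 of 6 groups. CPM values use TMM-scaled library sizes; shares use all counts. Levels per kb and lengths use coding lengths, and paralog ratios are of counts. Named genes were the paralog pairs, RPL5, RPL11, RPS19, RPS14, RPS6, RPL22, the 5 largest and 5 smallest changes among called members of each pairwise comparison, the 3 largest in the comparison of responses, and those called against most members; a few of these genes are not reported here. Replicate libraries differed more than sampling allows (chi-square per gene 2.85 to 6.29, where sampling gives 1), so all were kept. DESeq2 1.42.0, other scalings, filters and fits, pseudogene counts added and each library left out were tried as alternatives. Figures were drawn with matplotlib 3.10.9.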

Additional observations from a re-analysis of the deposited data

Results flagged for a closer look

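The SGC0946 response differed between sgUTX and sgLuc cells, by the test of the difference itself, for 65 members, all more positive in sgUTX cells. By the same test 34.8% of all genes were called, 18.3% positive and 16.5% negative. This difference rests on the same sgLuc libraries with DMSO as the comparisons of sgUTX with sgLuc in DMSO and of SGC0946 in sgLuc cells. Among named genes the log2 differences were 0.88 in RPL12, 0.81 in RPS2, 0.81 in RPL14, 0.75 in RPL22, 0.69 in RPL5, 0.67 in RPL3, 0.65 in RPS6, 0.60 in RPL7, 0.57 in RPL10, 0.54 in RPS19, 0.49 in RPL22L1, 0.44 in RPL11 and 0.37 in RPS14. That of RPS14 was not called without the first sgLuc library with SGC0946 (adjusted p = 0.0518) or the second with DMSO (adjusted p = 0.084).

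In 3 of 80 sets of 4 sgUTX libraries, 1 library lay far from the others, where chance flags about 1 in 20. With SGC0946, the second sgUTX_2 library was high in RPS14 (2036 CPM) and in RPS19 (1453 CPM), and the first was low in RPL34 (614 CPM).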

How the results depend on the processing

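The 73 members lower in sgUTX libraries with DMSO were 72 to 75 in every alternative tried, and leaving ribosomal protein genes out of the scaling gave the same counts of members lower in the 4 pairwise comparisons. Scaling by library size alone shifted the median of all genes by 0.26 in DMSO and 0.20 in SGC0946 for sgUTX against sgLuc, and the members' median relative to it stayed at -0.89 and -0.34. With library size alone, members lower were 39 for sgUTX against sgLuc in SGC0946, 1 for SGC0946 in sgUTX cells and 8 for sgUTX_4 against sgUTX_2 in SGC0946, and members higher than in sgLuc were 6 (sgUTX_2, DMSO), 7 (sgUTX_4, DMSO) and 11 (sgUTX_2, SGC0946). Among all 15060 genes, in the same order, 3226, 2387 and 215 were lower and 6423, 6453 and 5949 higher. With the length trend removed, members lower were 38 for sgUTX, 36 for sgUTX_2 and 42 for sgUTX_4 against sgLuc in SGC0946 and 45 for SGC0946 in sgUTX cells (0 higher), and members higher were 6 (sgUTX_2, DMSO), 7 (sgUTX_4, DMSO), 13 (sgUTX_2, SGC0946) and 11 (sgUTX_4, SGC0946). Among all genes, in the same order, 3495, 3511, 3453 and 4812 were lower and 5338, 5216, 5595 and 5638 higher. With that trend removed the guides differed by 3 members higher and 2 lower in DMSO, and 2 higher and 11 lower in SGC0946. For all genes these counts were 252 and 357 in DMSO, and 374 and 298 in SGC0946. Without a filter on low counts, 1 member was higher with SGC0946 in sgLuc and 11 lower in sgUTX cells, and the guides differed by 16 higher in DMSO and 3 higher and 14 lower in SGC0946. For all 29928 genes in that fit these counts were 4023 and 2620, and 373, 315 and 365. With guides averaged over 6 groups, 1 member was higher with SGC0946 in sgLuc and 7 lower in sgUTX cells, against 4050 and 2930 of all genes. DESeq2 gave 1 member lower in sgUTX cells and 5 lower for sgUTX_4 in SGC0946, against 2494 and 175 of all genes. Fitting only the groups compared gave 1 member higher in sgLuc cells and 2 (DMSO) and 4 (SGC0946) higher for sgUTX_4. For all genes these counts were 4201, 99 and 330. Of the genes called, 66.7% were higher for sgUTX against sgLuc in DMSO with library size alone and 56.3% with the length trend removed, against 47.1% with TMM. For SGC0946 in sgLuc cells the shares were 60.9% and 36.1%, against 50.6%, and in sgUTX cells 28.9% with the trend removed, against 51.5%.

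With each library left out in turn, members higher with SGC0946 in sgLuc cells were 0 to 1, members lower in sgUTX cells 0 to 12, and for sgUTX_4 against sgUTX_2 members higher were 1 to 15 and lower 0 to 1 in DMSO, and lower 0 to 4 in SGC0946. RPL22L1 in DMSO turned to 0.18 under library size alone and with the length trend removed, and RPS19 in SGC0946 turned to 0.0734 with that trend removed. The cause was not tested. Replicate numbers did not pair the libraries (correlations of deviations -0.111 to 0.0731), and a replicate block left 64 members lower for sgUTX in SGC0946 and 3 higher for sgUTX_4 in DMSO. Depth limits RPS10, with 26 to 87 counts per library, and RPL3L, with 3 to 19.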
